A study of Mus musculus with 8 samples.

Results

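Reads assigned to glycine tRNAs were examined in small RNA from mouse testis. The members are the entries of the count table of type tRNA or mmu-ucsc-tRNA whose name holds tRNA, a number and Gly, which gave 29 entries among 363 nuclear tRNA entries and 20558 small RNAs in all. By the anticodon at the end of the name, 14 are GlyGCC, 7 are GlyCCC, 7 are GlyTCC and 1 is GlyACC. The samples were testes of 8 adult C57Bl/6 males: M1N, M2N, TN1 and TN2 were the 4 SD mice, on standard chow, whereas the 4 WD mice M1W, M2W, M3W and M5W received a Western-like diet rich in sugar and fat. The labels name no transgene and no other treatment for either group. The labels give an age of 4 weeks for the start of the rich diet and of 4 months at mating. The methods state a younger age for the start. The labels describe that diet for all 8 mice, so the diet of the SD mice was taken from their titles and the paper. The libraries were sequenced on a SOLiD machine with reads of at most 31 bases.

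A tRNA carries an amino acid to the ribosome and reads the codon through its anticodon. Glycine codons begin with GG. GlyGCC reads those ending in C or U, GlyTCC reads chiefly the one ending in A, and GlyCCC reads the one ending in G. Mature tRNAs can be cut in or near the anticodon loop into long 5′ and 3′ pieces and shorter fragments. In mature mouse sperm the long 5′ piece of GlyGCC is known as one of the most abundant small RNAs, whereas in whole testis, rich in spermatocytes and spermatids, piRNAs prevail.

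The genes behind the entries were located in mm9 (NCBIM37). The search found 28 glycine tRNA genes on the chromosomes and with the anticodons of the entries, and their number equalled that of the entries in 14 of 15 combinations of chromosome and anticodon. The exception was chr11.tRNA205-GlyACC, for which no gene was found by this search. The numbers in the entries' names were not matched to positions, so a sequence was tied to an entry only where all genes of its chromosome and anticodon share 1 sequence, which held for 16 entries. The genes carry 11 distinct sequences of 71 or 72 bases. The following ones are shown because they are the main sequence forms of these genes, each 5′ to 3′ with the anticodon in capitals.
GlyTCC, all 7 genes, here chr1:172968128-172968199 (minus strand): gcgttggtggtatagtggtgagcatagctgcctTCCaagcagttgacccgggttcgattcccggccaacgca
GlyGCC, common sequence of 8 genes, here chr1:172975116-172975186 (plus strand): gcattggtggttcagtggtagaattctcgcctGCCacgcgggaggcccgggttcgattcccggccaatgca
GlyGCC, 3 genes on chromosome 1, here chr1:172996762-172996832 (plus strand): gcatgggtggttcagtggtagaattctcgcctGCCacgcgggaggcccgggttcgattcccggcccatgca
GlyGCC, chr4.tRNA1314-GlyGCC, chr4:132670411-132670481 (minus strand): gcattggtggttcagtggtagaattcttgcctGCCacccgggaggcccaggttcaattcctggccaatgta
GlyCCC, chr6.tRNA317-GlyCCC at chr6:86353887-86353957 (plus strand), the same as chr17.tRNA113-GlyCCC: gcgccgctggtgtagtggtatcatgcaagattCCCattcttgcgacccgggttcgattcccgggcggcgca
GlyCCC, 1 gene on chromosome 3, chr3:96115177-96115247 (plus strand): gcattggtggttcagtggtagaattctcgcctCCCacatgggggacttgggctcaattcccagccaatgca
GlyCCC, 2 genes on chromosome 3, here chr3:96155090-96155160 (minus strand): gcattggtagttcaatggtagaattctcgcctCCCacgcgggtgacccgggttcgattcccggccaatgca

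Counted from 1 at the 5′ end, the chromosome 1 variant differs from the common GlyGCC sequence by T5G and A66C. The sequence of chr4.tRNA1314-GlyGCC differs by C28T, G38C, G49A, G55A, C61T and C70T. The GlyCCC gene at chr3:96115177-96115247 has the same first 31 bases as the common GlyGCC sequence, as do 11 of the 28 genes, itself included. The anticodon of these genes begins at base 33. A read of 31 bases that starts at the first base therefore does not reach it. The GlyCCC genes on chromosomes 6 and 17 belong to another sequence family and differ from the common GlyGCC sequence at 13 of the first 31 bases. GlyTCC differs at 12. Bases were compared by position without a gap, and GlyTCC has 72 bases against 71, so the shift may add to this number. Of the 28 genes, 20 are intergenic in GENCODE M1, 7 lie in introns and 1, a GlyTCC gene at chr1:172994830-172994901, lies in an exon of Fcgr3 outside its coding part. A group of 9 genes, both GlyGCC and GlyTCC, spans chr1:172968128-173032958. The RefSeq table of assembly GRCm38.p6 lists 28 glycine tRNA genes and has as many as there are entries in 14 of the same 15 combinations.

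Entries whose genes share a sequence had nearly the same counts. The counts of chr6.tRNA317-GlyCCC in M1N, M2N, TN1, TN2, M1W, M2W, M3W and M5W were 679, 773, 708, 379, 710, 1272, 409 and 281, and those of chr17.tRNA113-GlyCCC differed from them by at most 2 counts in any mouse. Over 8 mice the squared difference divided by the sum of both counts, added up, was 0.00870 for this pair, where independent counts would give about 8. Of the 32 pairs of entries known to share a gene sequence, 28 stayed under 8 by this measure. Independent pairs would often fall under 8 too, but the median of the 32 was 1.40. The copies thus do not carry independent counts, and how reads with several matches were counted is not given in the sources used here. A sum over copies may hold the same read more than once.

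The 4 exceptions among such pairs all involve chr13.tRNA77-GlyGCC, whose gene has the common sequence. Its counts were 256, 206, 174 and 108 in the SD mice and 244, 371, 114 and 146 in the WD mice. Its twin chr13.tRNA110-GlyGCC had 183, 162, 153 and 96 and then 224, 356, 97 and 84. The excess in counts was largest in M1N, with 73 counts, and in M5W, with 62, and ranged from 12 to 44 counts in the other 6 mice. As a ratio of the 2 entries it was largest in M5W, at 1.74, then 1.40 in M1N and 1.04 to 1.27 in the other 6. Both diets thus have a mouse with a large excess and mice with a small one. A smaller excess of the same kind was seen for chr1.tRNA1004-GlyTCC in M1N, with 107 counts against 85 for chr1.tRNA1001-GlyTCC.

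The tRNA entries are a minor part of these libraries. Total counts ranged from 2064562 to 3253798 per mouse, so that 3 counts correspond to 0.933 to 1.39 CPM (counts scaled to a common library size, with TMM factors). This floor covers counting error only. piRNAs took 84.4 to 88.6% of the counts and nuclear tRNAs 1.41 to 2.29%. No pair of mice agreed within sampling noise, the chi-square per degree of freedom over all small RNAs being 2.42 to 22.2 in 28 pairs. The miRNAs of male germ cells, miR-34c-5p, miR-34b-5p and miR-449a-5p, were all detected, with a summed level of 12189 to 16026 CPM in SD mice and 12019 to 16937 CPM in WD mice. This sum came mostly from miR-34c-5p and miR-34b-5p. miR-449a-5p had 2299, 1640, 1082 and 940 CPM in M1N, M2N, TN1 and TN2 and 835 to 1125 CPM in WD mice. Of the gonadal somatic miRNAs, miR-202-5p had 3408 to 4094 CPM in SD mice and 4081 to 6856 CPM in WD mice, whereas the less abundant miR-202-3p had 98.9 to 202 and 83.7 to 165 CPM. Their sum was 3609 to 4193 CPM in SD mice and 4187 to 7021 CPM in WD mice. miR-122-5p, a liver miRNA, had 49 counts in TN1 and 28 in TN2 and 0 in each of the other 6 mice. Of the blood miRNAs, miR-451 and miR-144-3p summed to 38.3 to 148 CPM in SD mice and 74.6 to 132 CPM in WD mice. The muscle miRNA miR-133a-3p was at 4.61 to 12.8 CPM in all mice.

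By sum GlyGCC had the highest level and GlyACC the lowest, but per entry GlyCCC stood above GlyGCC (79.4 against 56.7 CPM, averaged over 8 mice). The GlyCCC mean was carried by chr6.tRNA317-GlyCCC and chr17.tRNA113-GlyCCC, which held 87.4% of its counts. A sum may hold a read more than once, so neither order is one of molecules. The genes differ by at most 1 base in length. Summed over its 14 entries, GlyGCC had 790.3, 622, 670.3 and 610.5 CPM in M1N, M2N, TN1 and TN2, and 892, 1884, 542 and 342 CPM in M1W, M2W, M3W and M5W. The SD mice lie close together and inside the range of the WD mice, whose highest mouse, M2W, exceeded the lowest, M5W, 5.52-fold. The same ratio was 1.29 in SD mice. The mean of the SD mice was 673 ± 82.2 CPM (SD, n = 4) and that of the WD mice 915 ± 685 CPM (SD, n = 4).

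GlyCCC followed the same order of WD mice. Its 7 entries summed to 534, 552, 505 and 406 CPM in the SD mice and to 544, 1281, 423 and 204 CPM in the WD mice. Again M2W was highest and M5W lowest of all 8 mice, 6.27-fold apart, against 1.36-fold among SD mice. Of the GlyCCC counts, 87.4% lay on chr6.tRNA317-GlyCCC and chr17.tRNA113-GlyCCC, the pair of entries from the other sequence family. The means were 499 ± 64.9 CPM (SD, n = 4) and 613 ± 467 CPM (SD, n = 4).

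GlyTCC varied much less among the WD mice. The sum over its 7 entries was 215, 178, 302 and 234 CPM in the SD mice and 298, 302, 215 and 229.6 CPM in the WD mice. M2W was close to TN1 and M1W, and M5W was not low, so the ranges overlap almost fully. The highest WD mouse exceeded the lowest 1.40-fold and the highest SD mouse the lowest 1.70-fold. SD mice averaged 232 ± 52.1 CPM (SD, n = 4), WD mice 261 ± 45.4 CPM (SD, n = 4).

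GlyACC was low. Its single entry, chr11.tRNA205-GlyACC, had 14.7, 9.88, 9.45 and 13.9 CPM in the SD mice and 7.89, 12.3, 9.68 and 6.22 CPM in the WD mice, from 20 to 43 counts per mouse. The ranges overlap. Per entry and averaged over 8 mice, the levels were 56.7 CPM for GlyGCC, 79.4 for GlyCCC, 35.2 for GlyTCC and 10.5 for GlyACC.

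**Figure D1:**
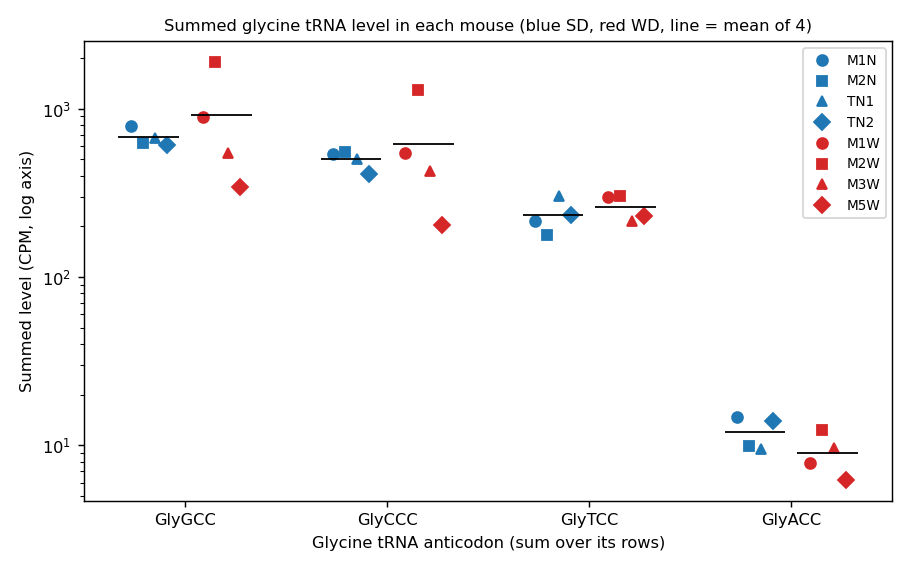
Summed level in CPM (log axis) of each glycine anticodon in each mouse, 4 SD mice in blue and 4 WD mice in red, with a line at the mean of 4. The WD mice spread from 342 to 1884 CPM for GlyGCC and from 204 to 1281 CPM for GlyCCC, around the SD mice, whereas for GlyTCC both diets lie between 178 and 302 CPM.

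To determine whether the diet changed these RNAs, the deposited counts were compared with edgeR's quasi-likelihood test, adjusted over all small RNAs tested. Of the 29 entries, 28 had enough counts to be tested, the exception being chr4.tRNA67-GlyCCC with 2 to 16 counts per mouse. No glycine entry passed an adjusted p of 0.05 (0 of 28), and of all 16955 small RNAs tested 0 (0%) did. At an unadjusted p under 0.05 the numbers were 0 of 28 glycine entries and 2474 small RNAs (14.6%). Without M5W they were 11 of 28 glycine entries, whose copies do not carry independent counts, and 1277 of 17043 small RNAs (7.49%). At an adjusted p of 0.05, 0 of 28 entries and 0 (0%) of all small RNAs passed without M5W. M5W was the mouse whose omission gave the most glycine entries. Leaving out any other mouse gave 0 to 2 glycine entries and 1360 to 3924 small RNAs at an unadjusted p under 0.05. DESeq2 called 0 glycine entries and 0 (0%) of all small RNAs, and at an unadjusted p under 0.05 it gave 0 entries and 2195 small RNAs (12.9%). limma-voom called 0 and 0 (0%), with 1 entry and 2506 small RNAs (14.8%) at an unadjusted p under 0.05. No glycine entry had its WD mice all above or all below the SD mice. The same count over all small RNAs is not given here, so this describes these entries alone.

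The summed counts did not pass the test either. The log2 fold change, WD against SD, was 0.45 (SE 0.36) for GlyGCC with an adjusted p of 0.544 in edgeR's test. For GlyCCC it was 0.30 (SE 0.37, edgeR adjusted p = 0.698), for GlyTCC 0.18 (SE 0.19, edgeR adjusted p = 0.652) and for GlyACC -0.42 (SE 0.27, edgeR adjusted p = 0.450). The exact permutation test on log2 CPM gave two-sided p = 0.771, 1, 0.486 and 0.171, the smallest value that 4 against 4 mice allow being 0.0286. The direction for GlyGCC and GlyCCC rested on 1 mouse: without M2W the log2 fold changes were -0.18 and -0.35. For GlyTCC the value was 0.42 against M1N and M2N alone and -0.036 against TN1 and TN2 alone. With all 8 mice limma-voom gave 0.16 for GlyGCC and 0.0048 for GlyCCC. In whole testis, fewer cells of a type and less RNA per cell cannot be told apart.

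Among the entries, 21 log2 fold changes were above 0 and 7 below, with a median of 0.23. The median was -0.20 over the 200 other nuclear tRNA entries tested and -0.0060 over all small RNAs tested. Without M2W the median over the 28 glycine entries was -0.10 and 13 of them changed sign. The 10 GlyGCC entries other than chr4.tRNA1314-GlyGCC, chr1.tRNA702-GlyGCC, chr1.tRNA704-GlyGCC and chr1.tRNA706-GlyGCC ranged from 0.39 to 0.57. For chr1.tRNA699-GlyGCC the levels were 64.1, 51.7, 47.9 and 44.9 CPM in SD mice and 74.0, 157, 46.1 and 27.4 CPM in WD mice. The log2 fold change of this entry was 0.54 (SE 0.37), and that of chr1.tRNA1392-GlyGCC was 0.55 (SE 0.37). The 7 GlyTCC entries lay between 0.13 and 0.19, among them chr1.tRNA1004-GlyTCC at 0.13 (SE 0.20) and chr1.tRNA1001-GlyTCC at 0.18 (SE 0.21). The most distant values were 0.85 (SE 0.46) for chr4.tRNA1314-GlyGCC, which was 0.075 without M2W, and -0.72 (SE 0.34) for chr3.tRNA752-GlyCCC, the latter from 6 to 20 counts per mouse.

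**Figure D2:**
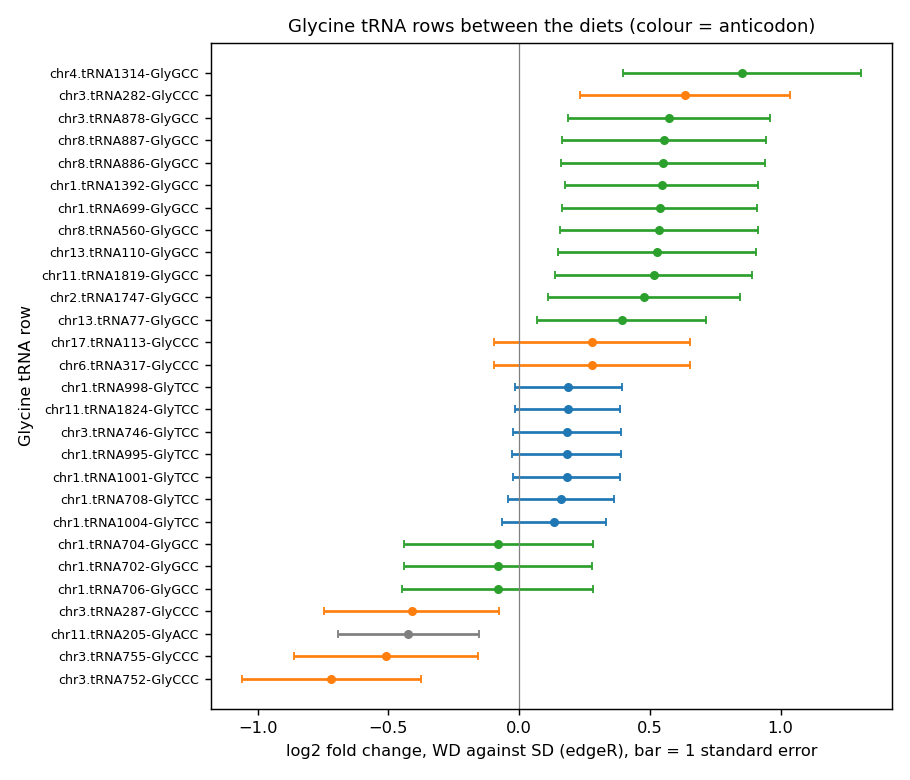
The log2 fold change of each of the 28 tested glycine tRNA entries, WD against SD (edgeR), with bars of 1 standard error and colours by anticodon (green GCC, orange CCC, blue TCC, grey ACC). Most GlyGCC entries sit between 0.39 and 0.57, the GlyTCC entries between 0.13 and 0.19, and none passed the test.

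The result depended on which mice were compared. Against M1N and M2N alone 0 of 28 glycine entries passed an adjusted p of 0.05 in edgeR's test, where 20.8% of all small RNAs did, and against TN1 and TN2 alone 0 of 27 did, where 0.134% of all did. Between M1W and M2W and the SD mice M1N and M2N alone, 11 of 28 entries passed, all higher in WD, against 6.13% of all small RNAs. These were 10 GlyGCC entries and chr3.tRNA282-GlyCCC, with log2 fold changes of 0.98 to 1.24. With the number in the mouse name as a replicate block the count was also 11, against 6.9% of all, with log2 fold changes of 0.91 to 1.14. The copies do not carry independent counts, so 11 entries are not 11 observations, and in the same 4 mice the GlyGCC sum had an edgeR adjusted p of 0.0544, or 0.109 with the block.

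The glycine anticodons were then compared within each library, where the scaling of the library has no effect. The ratio of summed GlyGCC to summed GlyTCC counts was 3.68, 3.50, 2.22 and 2.61 in M1N, M2N, TN1 and TN2, and 2.99, 6.24, 2.52 and 1.49 in M1W, M2W, M3W and M5W. The WD mice held both the highest and the lowest ratio, and the SD mice fell between them. On the log2 scale SD mice averaged 1.56 ± 0.35 (SD, n = 4) and WD mice 1.53 ± 0.85 (SD, n = 4), a difference of -0.025 (exact permutation test, two-sided, p = 0.943). The sign of this difference is not stable, since it was 0.11 with the highest entry of each anticodon in place of the sums.

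Across the 8 mice the GlyGCC and GlyCCC sums moved closely together, with a Pearson correlation of log2 CPM of 0.97 and a Spearman rho of 0.83, whereas GlyGCC and GlyTCC had 0.53 and 0.48. These are descriptions over 8 libraries of 2 diets, and entries may share reads. For single entries, the correlation between a GlyGCC and a GlyTCC entry never exceeded 0.63, while between GlyTCC entries it was at least 0.92.

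**Figure D3:**
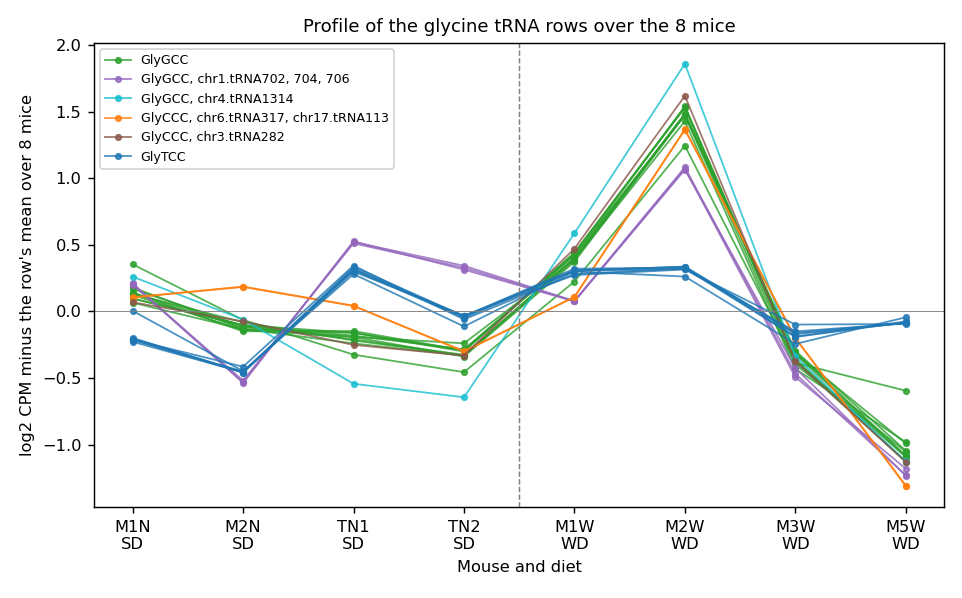
For each glycine tRNA entry other than GlyACC and the 4 GlyCCC entries with 2 to 20 counts, the log2 CPM in each mouse minus the entry's mean over the 8 mice, coloured by sequence group, SD mice left and WD mice right of the dashed line. The GlyGCC and GlyCCC entries peak in M2W and are lowest in M5W, the GlyTCC entries stay within a narrow band, and chr1.tRNA702, chr1.tRNA704 and chr1.tRNA706 stand above the other GlyGCC entries in TN1 and TN2.

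Among the GlyGCC entries, 3 followed a course of their own. chr1.tRNA702-GlyGCC, chr1.tRNA704-GlyGCC and chr1.tRNA706-GlyGCC had almost equal counts, those of chr1.tRNA704-GlyGCC being 136, 87, 184 and 108 in M1N, M2N, TN1 and TN2 and 129, 192, 65 and 55 in M1W, M2W, M3W and M5W. Chromosome 1 also holds 3 genes with the T5G and A66C sequence among its 5 GlyGCC genes, but the entries were not tied to them by position. The mean of the 3 entries divided by the count of chr1.tRNA699-GlyGCC was 1.20 in TN1 and 1.12 in TN2. It lay between 0.538 and 0.724 in the 6 mice with names in M. The mice thus divided by the letters of the name and not by diet: M1N and M2N, with 0.724 and 0.539, fell near the WD mice, which had 0.538 to 0.633. The log2 fold change of chr1.tRNA704-GlyGCC between the diets was -0.08 (SE 0.36).

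A second ratio divided the mice in the same way but in the other direction. chr4.tRNA1314-GlyGCC, the most divergent GlyGCC sequence, had 114, 98, 71 and 45 counts in M1N, M2N, TN1 and TN2 and 149, 270, 56 and 48 in the WD mice in the order above. Divided by chr1.tRNA699-GlyGCC this was 0.467 in TN1 and 0.464 in TN2, below the 0.545 to 0.752 of the other 6 mice. By contrast the ratio of chr1.tRNA1392-GlyGCC to chr1.tRNA699-GlyGCC stayed between 0.936 and 1.01 in all 8 mice. These ratios were picked after their values were seen and were not tested. TN1 and TN2 are also the mice with miR-122-5p counts, and whether that bears on these ratios was not tested.

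**Figure D4:**
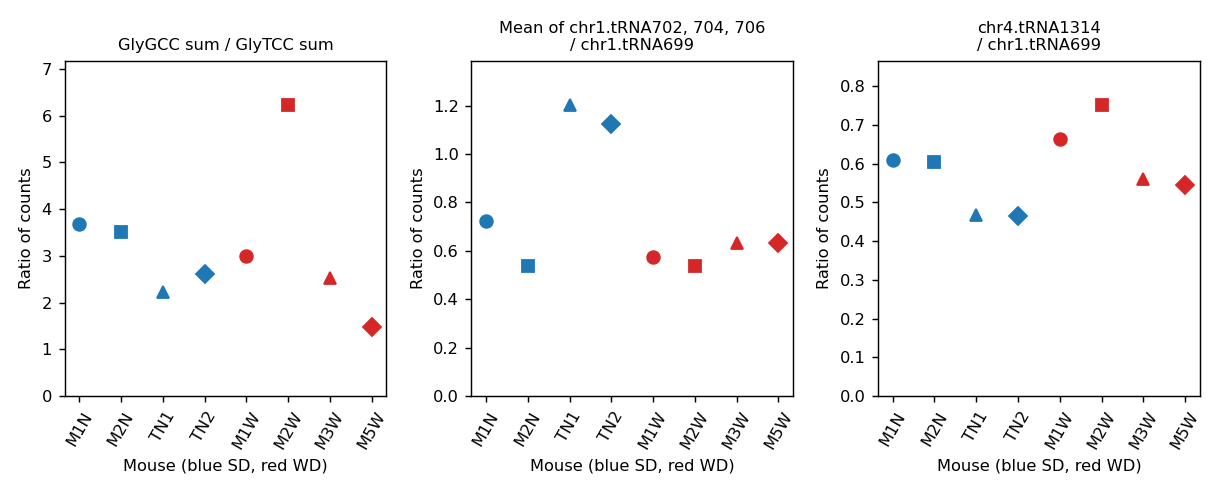
Ratios of counts within each library: summed GlyGCC to summed GlyTCC, the mean of chr1.tRNA702, chr1.tRNA704 and chr1.tRNA706 to chr1.tRNA699, and chr4.tRNA1314 to chr1.tRNA699, each per mouse with SD in blue and WD in red. The first ratio is highest in M2W (6.24) and lowest in M5W (1.49), and in the others TN1 and TN2 stand apart from the 6 mice with names in M.

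The GlyCCC entries fell into 3 levels. chr6.tRNA317-GlyCCC had 233, 246, 223 and 176 CPM in the SD mice and 233, 558, 188 and 87.4 CPM in the WD mice, with a log2 fold change of 0.28 (SE 0.37). chr3.tRNA282-GlyCCC was at 50.7, 45.9, 40.6 and 38.4 CPM and then 67.1, 149, 37.3 and 22.1 CPM, which is 0.791 to 0.944 times the count of chr1.tRNA699-GlyGCC in each library. Its log2 fold change was 0.63 (SE 0.40). Without M2W the value was -0.057 for this entry and -0.37 for chr6.tRNA317-GlyCCC. It has the level of a GlyGCC entry, and chromosome 3 holds a GlyCCC gene with the first 31 bases of GlyGCC, although the name does not tie the entry to that gene. The other 4 GlyCCC entries had only 2 to 20 counts per mouse, among them chr4.tRNA67-GlyCCC with 16 counts in TN1, 10 in TN2 and 2 to 7 in the other mice.

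Glycine took 6.09, 7.09, 8.47 and 8.39% of the nuclear tRNA counts in M1N, M2N, TN1 and TN2, and 10.5, 15.8, 7.17 and 5.78% in M1W, M2W, M3W and M5W. The 95% Wilson interval was 15.5 to 16.2% for M2W and 5.56 to 6.00% for M5W. These intervals treat every count as a separate read and are too narrow where copies hold the same read. The WD mice again lie on both sides of the SD mice. SD mice averaged 7.51% ± 1.13 (SD, n = 4), WD mice 9.81% ± 4.47 (SD, n = 4). The difference of 2.30 percentage points was smaller than the standard deviation among WD mice (two-sided exact permutation test, p = 0.429), and it was 0.287 points without M2W. Of all counts, the glycine share averaged 0.139% ± 0.00964 (SD, n = 4) on standard chow and 0.182% ± 0.117 (SD, n = 4) on the rich diet. The groups were 0.0432 percentage points apart (two-sided exact permutation test, p = 0.714), and WD minus SD was -0.0116 without M2W. Over the 7 exact tests of sums, ratio and shares every Benjamini-Hochberg adjusted p was 1.

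The spread among WD mice was next set beside that of other tRNAs. By mean level glycine ranked 3 among 20 amino acids, with 1607 CPM, after glutamate with 6190 CPM and lysine with 4257 CPM. Without M2W it ranked 5, with 1340.0 CPM, as it did in the 4 SD mice alone, with 1416 CPM, after valine and aspartate. These levels are sums over 29 entries for glycine, 20 for valine and 16 for aspartate. Such sums may hold a read more than once, so the ranks are not an order of molecules. Of the 16 combinations of amino acid and anticodon with a mean of 100 CPM or more, GlyCCC and GlyGCC had the widest spread among WD mice. The next was ValCAC, 2.91-fold between its highest and lowest WD mouse. M2W exceeded the median of the other WD mice 3.48-fold for GlyGCC and 3.03-fold for GlyCCC. For the other 14 combinations this ratio was 0.807 to 1.90, and for GlyTCC it was 1.32. Among SD mice the order was different, with GlyGCC at rank 15 and GlyCCC at rank 11 of 16. M2W was the highest WD mouse in 12 of 16 combinations and also had the highest miRNA share, 12.7%, and the highest miR-202-5p level, 6856 CPM, whereas its miR-202-3p level, 165 CPM, was the highest of the WD mice but below M1N (202 CPM) and M2N (181 CPM). The part of these in the glycine values was not tested. No amino acid had an entry that passed an adjusted p of 0.05 in edgeR's test.

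**Figure D5:**
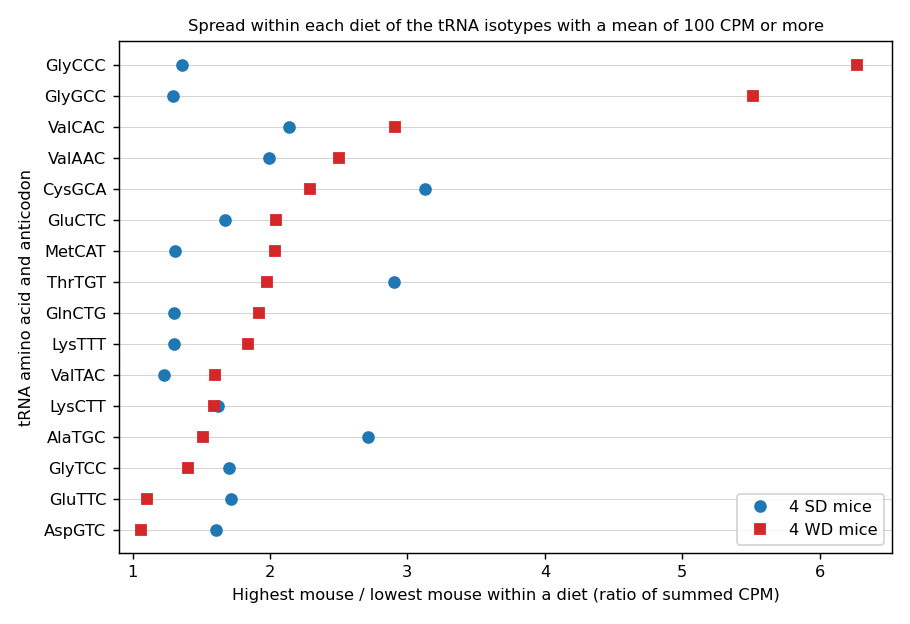
Highest divided by lowest mouse within each diet for the 16 combinations of amino acid and anticodon with a mean summed level of 100 CPM or more, SD mice as blue circles and WD mice as red squares. GlyCCC (6.27) and GlyGCC (5.52) lie far to the right in WD mice, and the next, ValCAC, is at 2.91.

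The mitochondrial glycine tRNA, mt-Tg, which serves translation inside mitochondria and is no copy of the nuclear genes, was low. It had 56, 25, 23 and 15 counts in the SD mice and 45, 13, 7 and 24 in the WD mice. M1N and M1W were highest, and the diets overlapped. Its log2 fold change was -0.37 (SE 0.42, edgeR adjusted p = 0.671). M2W, highest for GlyGCC, had 5.70 CPM of mt-Tg, below 6 of the other 7 mice.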

How the data were processed

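Small RNA from the testes of 8 mice was sequenced, 1 library per mouse. The authors removed adaptor sequence, cut reads without it to 31 bases, mapped them with Bowtie on the mm9 genome with up to 2 mismatches, and deposited raw counts per small RNA and mouse. Bowtie, DESeq and mm9 also stand in the submitters' processing notes, without versions. The counter is not given in the sources used here. P-values measure the spread between mice.

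Counts were tested with edgeR 4.0.16 in R 4.3.3: TMM factors over all small RNAs, filterByExpr (minimum count 10, minimum total 15), glmQLFTest with diet as the only term, two-sided, Benjamini-Hochberg over all entries tested. Standard errors were derived from the F statistic. DESeq2 1.42.0 and limma 3.58.1 were alternatives, besides other scalings, filters, control pairs, the M1 and M2 mice and each mouse left out. Single values had an exact permutation test (scipy 1.17.1). The procedure was tested on simulated data.

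Genes were sought in NCBIM37 by T loop, 3 stems with at most 1 unpaired position and a glycine anticodon, and by the exact first 31 bases of such genes, and positions come from GENCODE M1. All glycine entries, their sums, mt-Tg, amino acid sums and the 5 small RNAs most correlated with the GlyGCC and GlyTCC sums were to be named. The members and lists were chosen with earlier results of these data known.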

Additional observations from a re-analysis of the deposited data

How the results depend on the processing

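The count of glycine entries with an adjusted p under 0.05 was 0 under every alternative except the 4 M1 and M2 mice, where it was 11 with the number in the name as a replicate block and 11 without the block. The numbers were not taken as pairs: the mice are different animals, and the deviations of same-numbered mice correlated at -0.057. Against TN1 and TN2 alone the log2 fold change of summed GlyTCC was -0.036 (0.42 against M1N and M2N alone, 0.62 in the M1 and M2 mice), of chr1.tRNA1001-GlyTCC -0.052 and of chr1.tRNA1004-GlyTCC -0.021. Leaving out each mouse gave -0.18 to 0.72 for summed GlyGCC, -0.35 to 0.59 for GlyCCC, 0.06 to 0.33 for GlyTCC and -0.60 to -0.26 for GlyACC, with 0 sums called, and the negative values of the first pair came without M2W. Single entries ranged from -0.084 to 0.83 for chr1.tRNA699-GlyGCC, -0.078 to 0.83 for chr1.tRNA1392-GlyGCC, -0.61 to 0.20 for chr1.tRNA704-GlyGCC, 0.075 to 1.18 for chr4.tRNA1314-GlyGCC, 0.018 to 0.26 for chr1.tRNA1004-GlyTCC, 0.070 to 0.34 for chr1.tRNA1001-GlyTCC, -0.37 to 0.58 for chr6.tRNA317-GlyCCC and -0.057 to 0.94 for chr3.tRNA282-GlyCCC. For chr1.tRNA704-GlyGCC the value was 0.21 against M1N and M2N alone, 0.73 in the M1 and M2 mice with the block and 0.76 without it, and without TN1, M3W or M5W it was 0.06, 0.05 or 0.20. For chr6.tRNA317-GlyCCC it was -0.020 with limma-voom. The log2 ratio of GlyGCC to GlyTCC, WD minus SD, was 0.11 with the highest entries, -0.31 against M1N with M2N and 0.26 against TN1 with TN2, 0.27 as the mean difference within M1 and within M2 (replicate block, no test), and -0.39 to 0.29 leaving out each mouse. Leaving out each mouse, the share of nuclear tRNA counts gave 0.287 to 3.64 percentage points and the share of all counts -0.0116 to 0.0768, and as the mean difference between same-numbered M1 and M2 mice they gave 6.55 and 0.128. The causes were not tested.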

Other observations

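The small RNAs whose log2 CPM over the 8 mice was most like that of the GlyGCC sum were the piRNAs FR193360 (Pearson r 0.94), FR296765 (0.92), FR041954 (0.91) and FR305017 (0.90) and miR-652-3p (0.89). For the GlyTCC sum they were the piRNAs FR205322 (0.96), FR090688 (0.95), FR013840 (0.95) and FR346508 (0.93) and miR-16-2-3p (0.92). No small RNA stood in both lists. Each was picked as one of the highest among all small RNAs tested over 8 libraries, so the numbers are a description.

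Between the diets, the amino acids with the highest median log2 fold change over their tested entries were glutamine, at 0.41 over 13 entries, and glycine, at 0.23 over 28, which was -0.10 without M2W. Those with the lowest were threonine, at -0.49 over 6 entries, and alanine, at -0.41 over 18. Single mice stood out here too: GlnCTG summed to 231 CPM in M1W against 121 to 135 CPM in the other WD mice, and ThrTGT to 818 CPM in M2N against 282 to 453 CPM in the other SD mice. No glutamine or threonine entry passed an adjusted p of 0.05 in edgeR's test, where 0 of all small RNAs did.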
